A study of Homo sapiens with 84 samples.

Results

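The 5' UTR peaks are the 9558 open-chromatin regions that the authors' annotation places in a 5' untranslated region, of 861439 peaks in all (1.11%). They were chosen by that annotation alone, whatever their counts, and joined to the authors' count table by peak. The annotation assigns each of them to 1 gene, and 5087 genes hold them: 2992 genes have 1 such peak, 1105 have 2 and 990 have 3 or more. The peaks lie on 23 chromosomes and are 150 to 4251 bp wide, with a median of 778.5 bp. Open DNA was read by ATAC-seq, an assay that lets the enzyme Tn5 insert sequencing adapters wherever chromatin leaves room, in established lines of triple-negative breast cancer, the breast cancers that lack oestrogen receptor, progesterone receptor and HER2 amplification. The question the series poses is how open chromatin in such cells responds to an EZH2 inhibitor, an AKT inhibitor and both together.

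The combination of tazemetostat and ipatasertib, each at 5 uM, or DMSO, the solvent, was given to 9 lines. These were BT-20, BT-549, HCC1143, HCC1395, HCC1937, MDA-MB-231, MDA-MB-468, SUM-149PT and SUM-159PT. The last 4 of them also had tazemetostat alone and ipatasertib alone. In the schedule the labels give for MDA-MB-468, dosing with tazemetostat began on day -5, cells were replated on days -3 and -1, and ipatasertib came on day 0, in medium with 2% serum, for the last 24 hours, so the single agents differ in target and in length of exposure. Each of the 26 groups had 3 libraries, made from 50000 cells each. The 78 libraries held 12292571 to 21459284 counts in peaks, of which 710263 to 1183402 lay in 5' UTR peaks.

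The 5' untranslated region is the stretch of a transcript between its start and its start codon. Many genes start at several sites, and the untranslated part is often split by introns, so a 5' UTR exon can lie far from the start that an annotation lists first, and it can itself be the first exon of another transcript. EZH2 is the catalytic subunit of the Polycomb complex PRC2, which methylates histone H3 at genes kept silent, many of them developmental. AKT kinases carry growth signals downstream of PI3K and hold FOXO factors out of the nucleus.

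The label was checked against RefSeq (GRCh38.p14). A RefSeq transcription start lay inside 3065 of the 5' UTR peaks (32.07%), against 26.28% of the peaks the authors class as Promoter, 1.225% of Exon peaks and 0.190% of first-intron peaks. Of these, 2218 held a start of the assigned gene, 847 held a start of another gene only and 6493 held none. The 847 peaks held starts of 918 other genes, 783 of them protein-coding, and 805 of the 918 (87.69%) were assigned to no peak of the table at all. A peak named for one gene can therefore sit at the start of another, and that other gene is given beside such peaks here. The distance to the start of the assigned gene ran from 3004 to 2474813 bp, with quartiles of 13386.5, 35616 and 93474.75 bp, because the annotation calls anything nearer a promoter. Of the 9558 peaks, 8736 (91.4%) lay downstream of that start, and 7776 (81.36%) lay inside the assigned gene. Of the 8303 peaks whose gene also has a Promoter peak, 2569 (30.94%) were more accessible in DMSO than the most accessible Promoter peak of the same gene.

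Reference stretches at starts inside 5' UTR peaks are shown because their base composition differed between the peaks that rose and those that fell with the combination. The first set gives the 30 bases that end just before the start, read 5′ to 3′ on the gene's strand, for the 9 risen peaks with a start that the rules for named peaks chose, with each CG dinucleotide in capitals.
ESRRG, chr1:216723430-216723459, minus strand: ggctttaagtccttgattaggagagtgtga
ESRRG, chr1:217078288-217078317, minus strand: ttttaaccctgagactttccaagatctcct
GAS2, chr11:22666581-22666610, plus strand: caactgcatttgCGtccaccaaaaaaagta
NAALAD2, chr11:90134633-90134662, plus strand: tggccttgCGaaggtcagCGgaggccaccc
RIMBP2, chr12:130633921-130633950, minus strand: aataagtaaatagccttccagcctggtgcc
ENTPD1, chr10:95755622-95755651, plus strand: tctcctgcaggaaactcatCGcttgggtca
LHX8, chr1:75134358-75134387, plus strand: tcttttcctggagggactcaggaaaagctc
ZFHX3, chr16:73144448-73144477, minus strand: cttaacccttCGggagctggggtttccttt
ESR1, chr6:151805675-151805704, plus strand: acacatccacacactctctctgcctagttc
Of these 9 stretches 5 hold no CG dinucleotide and none holds more than 2. The short stretch alone does not set risen peaks apart, since those at the fallen peaks of EGFR, CDC25B and EIF4G1 hold none either. The measured difference lies in the longer windows described with the results.

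The second set gives 30 bases around the ETS word at starts inside fallen peaks, with the word in capitals. The word is CCGGAAG, the core bound by many ETS factors, or its reverse complement CTTCCGG. These were the largest falls among the peaks with the word, apart from SNRNP200, which was added after its values were seen.
PRSS50, chr3:46717840-46717869, minus strand: actgggagcgcCTTCCGGagagacgcagtc
MAEA, chr4:1309402-1309431, plus strand: tgctgagtcccCCGGAAGaggaggcggtgc
H2BC6-AS1, chr6:26172843-26172872, minus strand: cactgcgtgtaCCGGAAGatgattttttta
GPS2, chr17:7315394-7315423, minus strand: ccgccgtgactCCGGAAGgactcggccggg
ZNF875, chr19:37334639-37334668, plus strand: cgtcagaaacaCTTCCGGtcggtggcccag
SNRNP200, chr2:96305565-96305594, minus strand: tggggcgcgacCCGGAAGcggaagggaacc
All coordinates and letters are those of RefSeq on GRCh38.p14. The values of both sets follow with the results.

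Most replicate libraries differed by less than sampling noise. The ratio of observed to sampling variance over 5' UTR peaks had a median of 0.791 in the 78 pairs of replicates, and 6 pairs were over 1. The highest were the pairs that hold HCC1395 DMSO replicate 3, with 2.04 and 2.14, so results that rest on HCC1395 are given with and without that library. The 3 libraries of a group were therefore summed and counted as 1 sample, and the cell line is the unit of replication in every test. P-values measure the spread between these lines. Peaks of the epithelial genes KRT8, a simple-epithelial keratin, and EPCAM, an adhesion protein, were open in every line. KRT8 peaks summed to 17.5 to 134 CPM with the combination and 14.3 to 141 CPM in DMSO. EPCAM had 2.95 to 26.3 CPM and 2.71 to 27.3 CPM. Both were picked from a list of luminal breast genes, of which some others were hardly open. GRHL1 reached 0.276 CPM with the combination and 0.552 CPM in DMSO, and ERBB3 0.211 and 0.388 CPM. Some mesenchymal genes were open in every line too, such as AXL, with 13.53 to 36.34 CPM and 12.36 to 37.95 CPM. The KRT8 and EPCAM levels alone therefore do not set the identity of a line. In bulk libraries, fewer cells with an open site and less opening per cell cannot be told apart.

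In DMSO the 5' UTR peaks were among the most accessible of the series. Their median was 1.534 CPM (counts scaled to each sample's total in peaks, mean over 9 lines), against 1.024 CPM for Promoter peaks, 0.355 CPM for Exon peaks and 0.237 CPM for all peaks. At least 1 CPM was reached in all 9 lines by 2916 peaks (30.51%), in 2 to 8 lines by 3183 (33.3%), in 1 line by 818 (8.558%) and in no line by 2641 (27.63%). Promoter peaks had 29.42% open in 9 lines and all peaks 5.736%. Peaks with a start of the assigned gene had a median of 7.429 CPM, those with a start of another gene only 11.15 CPM, and those with no start 0.863 CPM.

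**Figure D1:**
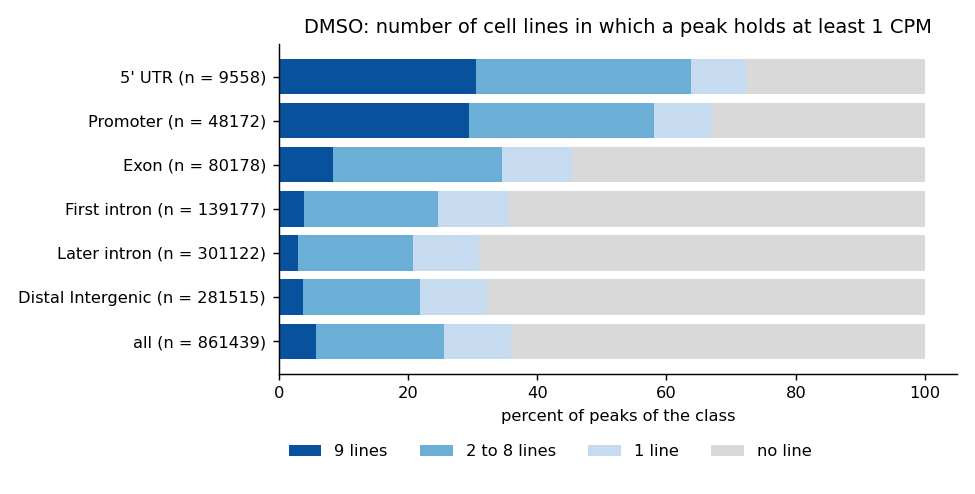
Share of the peaks of each annotation class (percent, horizontal axis) by the number of the 9 lines in which the peak holds at least 1 CPM in DMSO. The 5' UTR peaks, with 30.51% open in 9 lines and 27.63% in none, stand nearest to the Promoter peaks, with 29.42% and 33%.

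The most open 5' UTR peak was assigned to MIR4316 and holds a start of SEPTIN9, a cytoskeletal GTPase. In DMSO it ranged from 48.9 to 114 CPM over the 9 lines with a median of 85.4 CPM. Next by mean level were a peak at starts of MBOAT7 and TSEN34, assigned to LILRB3, and one of PLEC, the cytoskeletal linker plectin, with DMSO medians of 72.8 and 62.0 CPM. They were followed by peaks at starts of SCHIP1, SQSTM1 (the autophagy receptor p62) and TPRA1, with medians of 70.5, 67.0 and 67.3 CPM. All 6 held over 40 CPM in each of the 9 lines, so no line lacked them.

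The peaks that differed most between lines in DMSO included sites with no counts in some lines. A peak at chr9:21974272-21976063 (hg38), assigned to MTAP, holds a start of CDKN2A, which encodes the cell cycle inhibitor p16. It had 39.0 CPM in BT-549, 21.2 CPM in HCC1937 and 19.6 CPM in MDA-MB-468, and 0 counts in HCC1395, MDA-MB-231 and SUM-149PT, which allows up to 0.0589, 0.0685 and 0.0537 CPM. A peak of MTAP, an enzyme of methionine salvage whose gene neighbours CDKN2A, had 0 counts in MDA-MB-231 and SUM-149PT and 10.9 CPM in HCC1937. A peak at the start of ELAVL2, an RNA-binding protein of neurons on the same chromosome, was at 0 in the same pair of lines and at 35.4 CPM in BT-549. A peak of MGRN1, a ubiquitin ligase, was at 0 in MDA-MB-468 alone, which allows 0.0565 CPM, and reached 31.3 CPM in SUM-159PT. A peak assigned to DHRS2 at the start of DHRS4L2 was at 0 in BT-549 and MDA-MB-468, which allows 0.0649 and 0.0565 CPM, and reached 10.9 CPM in MDA-MB-231. A peak of TCF4, a basic helix-loop-helix factor, was at 16.7 CPM in BT-549 and 0.0534 CPM in HCC1937. These limits cover counting error only.

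The first comparison asked which 5' UTR peaks change with the combination in the 9 lines in general. Of the 9558 peaks, 7677 (80.32%) held enough counts to be tested. With the combination 313 rose (4.08%) and 400 fell (5.21%) at an adjusted p under 0.05 (edgeR quasi-likelihood test with the line as block, Benjamini-Hochberg over all 410603 peaks tested). Over all peaks tested 3.53% rose and 2.72% fell, 6.25% in all. Promoter peaks were near the 5' UTR peaks, with 4.43% risen and 5.09% fallen. The rises were fewer and larger: their median log2 fold was 0.77 and 69 of them reached 1. The falls had a median of -0.46 and 7 of them reached -1. The median over all tested 5' UTR peaks was -0.08, against -0.01 over all peaks. The same direction was seen in at least 8 of the 9 lines in 281 of the 313 rises and 385 of the 400 falls. Without HCC1395 DMSO replicate 3 the counts were 332 risen and 420 fallen.

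The balance of the calls depended on the lines. Without BT-549 there were 202 rises and 160 falls, without HCC1937 196 and 183, and without HCC1143 250 and 245. Without MDA-MB-231 there were 230 rises and 215 falls, without MDA-MB-468 302 and 201, and without SUM-159PT 239 and 188. Leaving out HCC1395 gave 210 rises and 303 falls, leaving out BT-20 253 and 320, and leaving out SUM-149PT 222 and 268. Rises outnumbered falls when any 1 of the first 6 of these lines was left out, and falls outnumbered rises when any 1 of the last 3 was.

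Peaks are named where their mean log2 CPM was at least 1 and at least 8 of the 9 lines moved the same way, the 10 largest in each direction. ESRRG, which encodes the orphan nuclear receptor ERR-gamma, had 4 risen peaks of 5 tested. The first named one, at chr1:216722681-216724045, holds the first sequence shown above. With the combination it had 2.49 CPM in BT-20, 3.66 in BT-549, 16.3 in HCC1143, 4.70 in HCC1395, 3.28 in HCC1937, 5.57 in MDA-MB-231, 4.16 in MDA-MB-468, 5.15 in SUM-149PT and 3.44 in SUM-159PT. With DMSO the same lines had 0.828, 2.83, 14.5, 0.844, 0.819, 2.97, 0.622, 1.31 and 0.943 CPM, in that order. It was higher in 9 of 9 lines, and HCC1143, where it was open before treatment, moved least. Its log2 fold was 1.49 ± 0.24 (± SE, n = 9 lines, edgeR adjusted p = 0.00647). The second named peak, at chr1:217078016-217079365 with the second sequence shown, ranged from 1.60 to 15.2 CPM with a median of 6.31 CPM with the combination, against 0.824 to 4.63 CPM with a median of 1.73 CPM in DMSO. It rose in 9 of 9 lines by 1.39 ± 0.18 (edgeR adjusted p = 0.00339).

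PROX1, the homeobox factor of lymphatic endothelium and a PRC2 developmental target, rose 6092 bp downstream of its listed start, at chr1:213989273-213990695. With the combination it had 11.5 CPM in BT-20, 8.51 in BT-549, 7.26 in HCC1143, 14.3 in HCC1395, 5.03 in HCC1937, 2.26 in MDA-MB-231, 22.1 in MDA-MB-468, 6.37 in SUM-149PT and 9.29 in SUM-159PT. With DMSO it had 4.02, 5.49, 3.27, 7.93, 1.76, 1.35, 5.11, 2.11 and 1.13 CPM in the same lines. Every line was higher with the combination, by 1.43 ± 0.18 on the log2 scale (n = 9 lines, edgeR adjusted p = 0.00339).

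The largest rise by the rule was a peak at chr8:2044131-2045608 assigned to MIR7160, a microRNA gene. It ranged from 0.442 to 11.9 CPM with a median of 4.86 CPM with the combination, against 0.290 to 4.67 CPM with a median of 1.004 CPM in DMSO. The log2 fold was 1.63 ± 0.19 in 9 of 9 lines (edgeR adjusted p = 0.0019). The other named rises were at FMN2, an actin nucleator (1.36 ± 0.20), CECR2, a bromodomain protein (1.26 ± 0.16), and SOX5, an SRY-box transcription factor (1.25 ± 0.20). They also included GAS2, a cytoskeletal protein (1.24 ± 0.21), the start of the peptidase NAALAD2 in a peak assigned to UBTFL1 (1.22 ± 0.27), and RIMBP2, a synaptic scaffold (1.12 ± 0.23). FMN2 was higher in 8 of 9 lines, with SUM-149PT the exception (0.672 CPM with the combination and 0.716 CPM with DMSO). The NAALAD2 start was higher in 8 of 9 lines and lower in SUM-159PT. CECR2, SOX5, GAS2 and RIMBP2 were higher in 9 of 9. Across lines the combination and DMSO values of each of these peaks overlapped, and it was within lines that they differed. All 10 calls held in every alternative tried.

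By the same rule the largest fall was at CARD10, a scaffold of NF-kappaB signalling, at chr22:37508520-37509670. With the combination it had 1.24 CPM in BT-20, 0.625 in BT-549, 2.57 in HCC1143, 2.11 in HCC1395, 7.63 in HCC1937, 0.577 in MDA-MB-231, 2.33 in MDA-MB-468, 1.18 in SUM-149PT and 0.488 in SUM-159PT. With DMSO it had 1.41, 1.21, 6.29, 3.004, 14.7, 1.16, 4.39, 2.43 and 1.54 CPM in the same lines. All 9 lines were lower with the combination, BT-20 least, and the log2 fold was -0.94 ± 0.14 (n = 9 lines, edgeR adjusted p = 0.00512). TMBIM6, a Bax inhibitor of the endoplasmic reticulum, ranged from 0.810 to 3.77 CPM with a median of 1.96 CPM with the combination, against 1.87 to 4.58 CPM with a median of 3.37 CPM in DMSO. It fell in 9 of 9 lines by 0.79 on the log2 scale (SE 0.16, edgeR adjusted p = 0.0146).

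Falls of similar size were found at ZNF793, a zinc-finger gene (-0.78 ± 0.15), CENPM, a kinetochore protein (-0.76 ± 0.11), and RCC1, the exchange factor of the GTPase Ran (-0.73 ± 0.12). POR, the electron donor of cytochrome P450 enzymes (-0.72 ± 0.12), CYB5D2, a haem-binding protein (-0.72 ± 0.20), DDX42, an RNA helicase (-0.72 ± 0.15), KIFC3, a kinesin (-0.71 ± 0.12), and CALCRL-AS1, an antisense RNA gene (-0.71 ± 0.19), followed. RCC1 ranged from 2.11 to 20.7 CPM with a median of 7.501 CPM with the combination, against 4.33 to 25.7 CPM with a median of 11.9 CPM in DMSO. POR had a median of 4.55 CPM with the combination and 11.5 CPM in DMSO. DDX42 and CALCRL-AS1 were lower in 8 of 9 lines and the other 8 named falls in 9 of 9. The calls of CYB5D2 and CALCRL-AS1 were lost in 9 and 7 of 20 alternatives, with adjusted p of up to 0.0913 and 0.0955. None of the 10 named falls held a RefSeq start, against 5 of the 10 named rises.

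**Figure D2:**
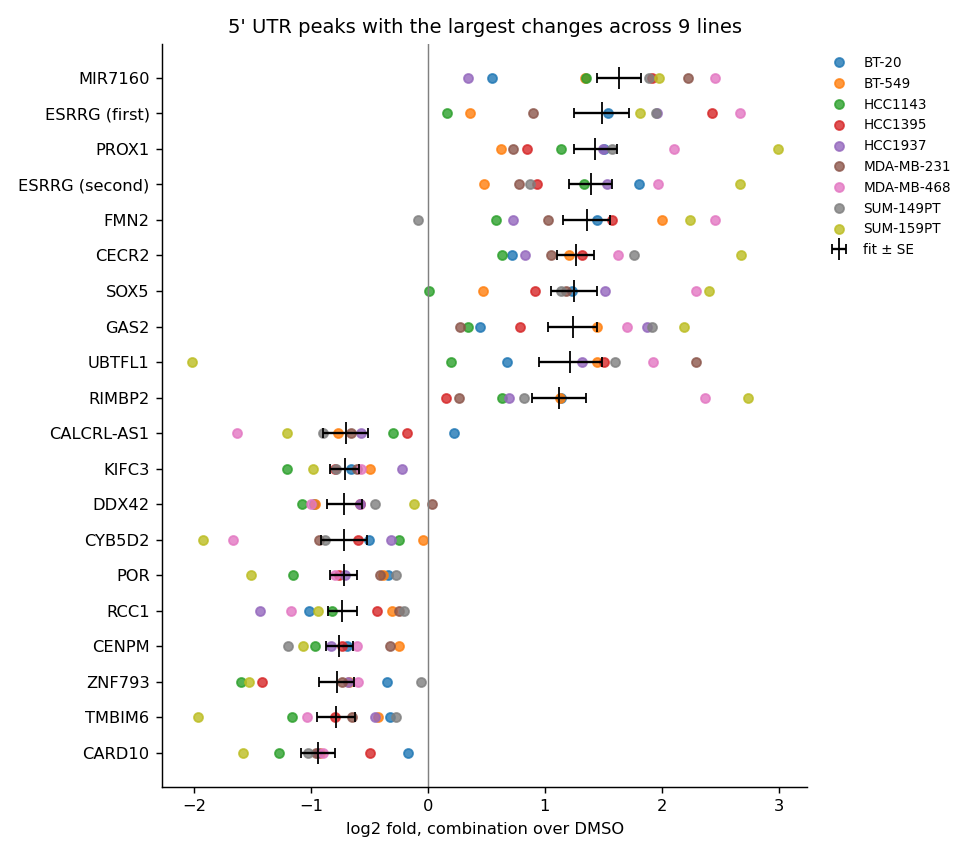
Log2 fold of the combination over DMSO (horizontal axis) for the 10 named rises and 10 named falls, 1 coloured point for each of the 9 lines and the fitted value ± SE in black. ESRRG (first) is the peak at 216722681 and ESRRG (second) that at 217078016. Points of the rises lie right of 0 except for FMN2 in SUM-149PT and UBTFL1 in SUM-159PT, which is at -2.02.

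Some genes had several called 5' UTR peaks, which were looked for after the values were seen. At least 2 peaks rose in 34 of the 258 genes with a risen peak and fell in 40 of the 349 genes with a fallen one. Separately, 5 genes had both a risen and a fallen peak. No such count was made over all peaks. DLG2, a scaffold of the postsynaptic density, had 7 risen peaks of 9 tested, with log2 folds of 0.71 to 1.41, and all 4 tested peaks of CACNB2, a calcium channel subunit, rose by 1.23 to 1.31. FMN2 and the sarcomere protein ACTN2 rose in 3 of 3 tested peaks, and BMPR1B, a BMP receptor, in 3 of 4. The region assigned to NYNRIN, which has 38 peaks, had 5 fallen of 36 tested. ST3GAL4, a sialyltransferase, fell in 3 of 3 tested peaks, STK11, the kinase LKB1, in 3 of 6, and ANXA2, a membrane-binding annexin, in 3 of 9. The NYNRIN-assigned falls included a peak at starts of NEDD8 and GMPR2 (-0.28) and one at starts of DHRS1 and NOP9 (-0.27).

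Rises and falls differed in their distance to the start of the assigned gene. Of peaks 3 to 10 kb away, 2.50% rose and 7.58% fell (n = 1478). At 10 to 30 kb 1.72% rose and 6.08% fell (n = 2089), at 30 to 100 kb 3.93% and 4.93% (n = 2415), at 100 to 300 kb 7.08% and 2.75% (n = 1272), and beyond 300 kb 13% and 1.65% (n = 423). All peaks of the table beyond 3 kb showed the same order with a smaller step, from 3.08% risen and 3.52% fallen at 3 to 10 kb to 5.19% and 0.757% beyond 300 kb. Within the 5' UTR peaks open in all 9 DMSO lines, 5.42% rose and 3.79% fell beyond 100 kb, against 1.38% and 9.01% within 30 kb. In peaks open in fewer lines the shares were 10.1% and 1.84% beyond 100 kb, against 2.51% and 5.11% within 30 kb. Over all tested 5' UTR peaks, the risen share was higher and the fallen share lower beyond 100 kb than within 30 kb. That order held in 21 of 21 settings, the main fit among them. The split by DMSO lines was made in the main fit only.

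**Figure D3:**
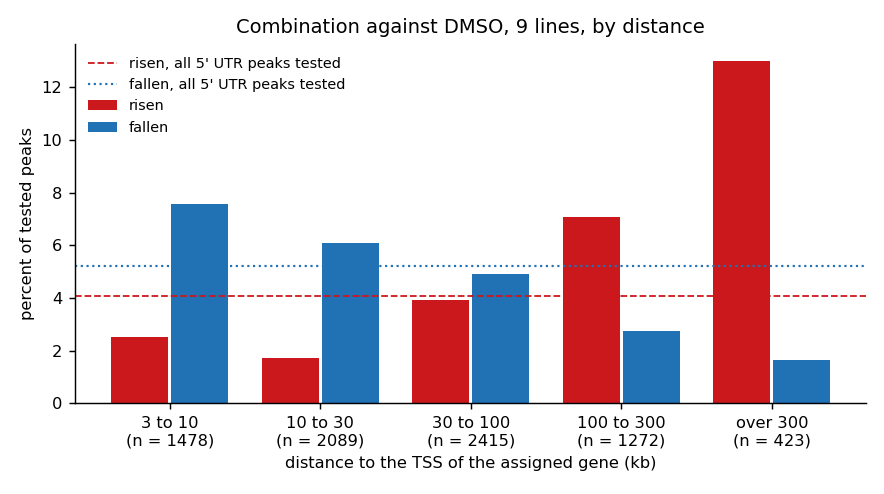
Percent of tested 5' UTR peaks that rose (red) or fell (blue) with the combination across 9 lines (vertical axis) by distance to the start of the assigned gene in kb (horizontal axis), with dashed and dotted lines at 4.08% and 5.21% for all tested 5' UTR peaks. Risen shares reach 13% and fallen shares 1.65% beyond 300 kb.

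Rises and falls also differed in their level before treatment. The risen peaks had a median of 2.047 CPM in DMSO and 24.6% of them were open in all 9 lines. The fallen peaks had a median of 6.445 CPM and 54.5% were open in 9 lines, against 2.855 CPM and 37.98% for all tested 5' UTR peaks. By number of DMSO lines at 1 CPM or more, 5.54% rose and 0.731% fell of peaks open in no line, 5.68% and 2.15% in 1 line, 4.63% and 5.11% in 2 to 8 lines and 2.64% and 7.48% in 9 lines. The DMSO counts that set these groups also enter the fold, here and in the other splits by DMSO lines. Only 957 of the 2641 peaks open in no line were tested, and a fall from so low a level can hardly be called. The shares by DMSO level are therefore a description only. A RefSeq start lay in 156 of the 313 risen peaks (49.84%) and in 135 of the 400 fallen peaks (33.75%), against 37.03% of those tested. Of peaks with a start of the assigned gene 6.14% rose and 4.14% fell. Of peaks with no start 3.25% rose and 5.48% fell. Chromosome 19, which carries many zinc-finger genes, had 3 risen and 53 fallen of 515 tested 5' UTR peaks (0.583% and 10.3%, against 1.73% and 8.25% for all peaks there). Chromosome X had 14 risen and 2 fallen of 177 (7.91% and 1.13%, against 3.42% and 2.17%).

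The promoter of the same gene moved with the 5' UTR peak in part. Of 251 risen peaks whose gene has a tested Promoter peak, the most accessible one rose in 75 (29.88%) and fell in none, with a median log2 fold of 0.29. Of 334 fallen peaks it fell in 45 (13.47%) and rose in none, with a median of -0.14. Over all 6319 5' UTR peaks with such a promoter, 5.82% had a risen and 4.54% a fallen one. CECR2 and RIMBP2 rose at both places, with promoter log2 folds of 1.57 and 1.304. The promoters of FMN2 and GAS2 had log2 folds of -0.26 and -0.14 that did not pass, while their 5' UTR peaks rose. The promoter of CARD10 had -0.12 and that of TMBIM6 0.01, neither passing. Across the 6319 peaks the log2 folds at the 2 places had a Spearman rho of 0.44 and a Pearson r of 0.46, as a description over sites that share libraries.

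Promoter windows from RefSeq, 250 bases before to 50 bases after the start, could be read for every start inside a peak. The ETS word, on either strand, was in 2 of 156 windows of risen peaks (1.28%) and in 41 of 135 of fallen peaks (30.37%). It was in 303 of 2843 windows of tested 5' UTR peaks (10.66%) and in 10.26% of all 35116 RefSeq promoters. The E-box word CACGTG was in 3.21% of risen, 12.59% of fallen and 7.46% of tested windows, and 7.26% of all promoters. The AP-1 word TGANTCA was in 5.77% of risen and 8.15% of fallen windows, against 9.29% of those tested and 7.71% of all promoters. The TEAD word GGAATG was in 17.95% of risen and 12.59% of fallen windows, against 14.14% and 14.03%, and the forkhead word TGTTTAC in 5.13% and 2.22%, against 3.31% and 3.42%. The SP/KLF word GGGCGGGG was in 21.15% of risen and 24.44% of fallen windows, against 29.02% and 22.76%. The NRF1 word was in 0.641% of risen and 0.741% of fallen windows, against 0.950% and 1.24%, and the CRE word TGACGTCA in 0% and 2.22%, against 2.39% and 1.85%. None of the 8 words searched contains another, and the ETS and TEAD words share the letters GGAA. The ETS, E-box, NRF1, CRE and SP/KLF words each hold a CG dinucleotide, and the other words do not. Windows of risen peaks held a median of 10 CG dinucleotides, those of fallen peaks 20 and those of tested peaks 18. The part of CG content in the word shares was not tested. The observed over expected CG ratio had a median of 0.466 in risen, 0.746 in fallen and 0.643 in tested windows, and 0.579 in all promoters. Windows with a word differ in level too: tested peaks with the ETS word had a median of 16.4 CPM in DMSO and those without it 8.29 CPM. A word in a window is a description and not a bound site.

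Of the 303 tested peaks with the ETS word 13.53% fell, against 3.70% of the 2540 without it. Among peaks open in all 9 DMSO lines the shares were 14.69% with it and 5.19% without it. Without BT-549 they were 3.96% and 1.43%, and without HCC1937 6.601% and 1.77%. The fallen peaks printed above ranged widely in level. PRSS50, a protease gene, had -0.96 ± 0.20 at 0.678 CPM in DMSO and MAEA, a subunit of a ubiquitin ligase, -0.69 ± 0.19 at 1.46 CPM. The peak at H2BC6-AS1, beside a histone gene, had -0.36 ± 0.08 at 19.0 CPM, GPS2, a corepressor subunit, -0.34 ± 0.07 at 20.3 CPM, and ZNF875, a zinc-finger gene, -0.33 ± 0.09 at 9.29 CPM. SNRNP200, a helicase of the spliceosome, had -0.28 ± 0.07 at 14.5 CPM. Their edgeR adjusted p ran from 0.0142 to 0.0382, MAEA was lower in 8 of 9 lines and the others in 9 of 9.

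Gene lists were read by their counts beside the 4.08% of all tested 5' UTR peaks that rose and the 5.21% that fell, and with so few peaks a list with 1 call cannot be set apart from these shares. The lists were chosen with earlier results of these data known, so their shares are a description only. Developmental genes known as PRC2 targets had 29 tested peaks, of which 5 rose and none fell, with a median log2 fold of 0.21. The risen ones were at PROX1 (1 of 2 tested peaks) and at the homeobox factors LHX8 (1 of 2) and ZFHX3 (1 of 3). The others were at PAX2 and PAX5, paired-box factors with 1 tested peak each. LHX8, at the start printed above, ranged from 0.276 to 10.02 CPM with a median of 4.28 CPM with the combination, against 0.299 to 7.22 CPM with a median of 0.867 CPM in DMSO. It was higher in 8 of 9 lines, SUM-159PT excepted, by 0.94 ± 0.18 (edgeR adjusted p = 0.0106). The called ZFHX3 peak rose by 0.79 ± 0.19 (edgeR adjusted p = 0.0276). Its call was lost without HCC1395, MDA-MB-231 or SUM-149PT, with an edgeR adjusted p of up to 0.0637. Summed over its 5 peaks, ZFHX3 had 25.7 to 80.7 CPM with the combination and 26.1 to 79.5 CPM in DMSO.

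The PRC2 enzyme list had 10 tested peaks, with none risen and 3 fallen and a median of -0.16. They were at MTF2 and PHF19, accessory PRC2 subunits (-0.86 ± 0.21 and -0.20 ± 0.06), and at KDM6B, a demethylase that opposes PRC2 (-0.22 ± 0.06), and their calls were lost in 4, 10 and 8 alternatives. Of 18 tested peaks of the PI3K-AKT-mTOR pathway 1 fell, at EGFR, the epidermal growth factor receptor (-0.28 ± 0.07, lost in 4 alternatives), with a list median of -0.24. Its peak had 59.1 CPM with the combination and 66.8 CPM with DMSO in MDA-MB-468, and 19.8 and 25.9 CPM in BT-20, the next highest line. Of 13 peaks of FOXO targets none passed, the largest being SOD2, mitochondrial superoxide dismutase (-0.19 ± 0.06, edgeR adjusted p = 0.0605). Of 9 cell cycle peaks 1 fell, at CDC25B, a phosphatase that starts mitosis (-0.24 ± 0.06), in every alternative.

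Of 29 tested peaks of luminal breast genes 2 rose and none fell, with a median of -0.09. They were at the hormone receptor genes whose products define the disease by their absence. PGR, the progesterone receptor, ranged from 0.0636 to 2.52 CPM with a median of 0.865 CPM with the combination, against 0.0690 to 0.823 CPM with a median of 0.352 CPM in DMSO. It was higher in 8 of 9 lines, by 1.19 ± 0.20 (edgeR adjusted p = 0.00712). Of 5 tested peaks of ESR1, the oestrogen receptor, 1 rose and none fell. Summed over all 7 ESR1 peaks the level was 5.76 to 33.9 CPM with the combination and 2.77 to 36.1 CPM in DMSO. With the combination the risen peak ranged from 0.847 to 8.69 CPM with a median of 4.19 CPM. In DMSO it ranged from 0.396 to 9.74 CPM with a median of 0.807 CPM. It was higher in 7 of 9 lines, by 0.99 ± 0.26 (edgeR adjusted p = 0.0346), a call lost in 9 alternatives. Basal genes had 1 fall among 22 tested peaks, at EGFR, and none of 32 mesenchymal peaks passed, with a median of 0.15.

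Of 14 AP-1 and ERK feedback peaks 2 fell: FOSL1, the AP-1 subunit FRA1 (-0.62 ± 0.13, in every alternative), and ATF2 (-0.77 ± 0.22, lost in 11 of 16). Of 17 peaks of sterol and fatty acid synthesis 4 fell, among them 2 peaks of SCAP, the escort of the SREBP factors (-0.90 ± 0.21, lost in 2 of 18 alternatives, and -0.65 ± 0.16, lost in 4 of 20), and 1 of FDPS, which makes farnesyl pyrophosphate. Of 10 interferon peaks 2 fell, at DDX58, the RNA sensor RIG-I (-0.55 ± 0.12), and at ISG15, a ubiquitin-like protein (-0.30 ± 0.07, lost in 3 of 20). Of 8 translation genes' peaks 1 rose, at IGF2, a growth factor (0.49 ± 0.12, lost in 3 of 20), and 1 fell, at EIF4G1, the scaffold of the cap-binding complex (-0.25 ± 0.07, lost in 5 of 20). Immune genes had no call in 5 tested peaks. Their summed level over 7 genes was 5.29 to 26.8 CPM with the combination and 5.55 to 26.4 CPM in DMSO. Endothelial genes had 1 rise in 15, at FLT1, a VEGF receptor (0.66 ± 0.17, lost in 7 alternatives), and summed to 23.8 to 65.5 CPM with the combination and 19.2 to 59.0 CPM in DMSO over 8 genes. The peak of ERG, an endothelial transcription factor, reached 0.366 CPM with the combination and 0.0716 CPM in DMSO. CSF1R, the receptor of macrophage growth factor, reached 0.608 CPM with the combination and 0.712 CPM in DMSO. Other members of the lists were open. The peaks of CDH5, on the endothelial list, reached 24.25 CPM with the combination and 23.52 CPM in DMSO. LCK, on the immune list, reached 10.9 CPM with the combination and 10.3 CPM in DMSO. The part of endothelial and immune markers in the PROX1 and FLT1 results was not tested.

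Within single lines the combination was compared with DMSO by size, without a test, since a line gives 1 independent sample per treatment. Peaks with a mean of at least 1 CPM in the line were read (4695 to 5118 5' UTR peaks per line) and called at a log2 fold of at least 1 in size. SUM-159PT had 498 higher and 108 lower of 4825 (16.3% and 3.07% of all peaks read), and MDA-MB-468 had 433 and 75 of 5005 (16.7% and 3.15%). The other 7 lines had 51 to 105 higher peaks. MDA-MB-231 had 105 higher and 15 lower of 4707 (2.71% and 0.528%), HCC1143 99 and 43 of 4897 (4.48% and 2.24%) and BT-549 90 and 14 of 4912 (3.46% and 0.494%). HCC1937 had 85 and 41 of 5118 (2.26% and 1%), SUM-149PT 85 and 20 of 4695 (2.22% and 0.799%), and BT-20 51 and 26 of 4858 (1.97% and 1.08%). HCC1395 had 78 and 80 of 4724 (3.12% and 2.99%), and 93 and 52 of 4688 without DMSO replicate 3 (3.19% and 2.94%). The member shares, 1.05% to 10.3% higher and 0.285% to 2.24% lower, were below those of all peaks in each line. Levels differ between these sets: 30.51% of 5' UTR peaks and 5.736% of all peaks were open in all 9 DMSO lines. The part of level in the lower shares was not tested.

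**Figure D4:**
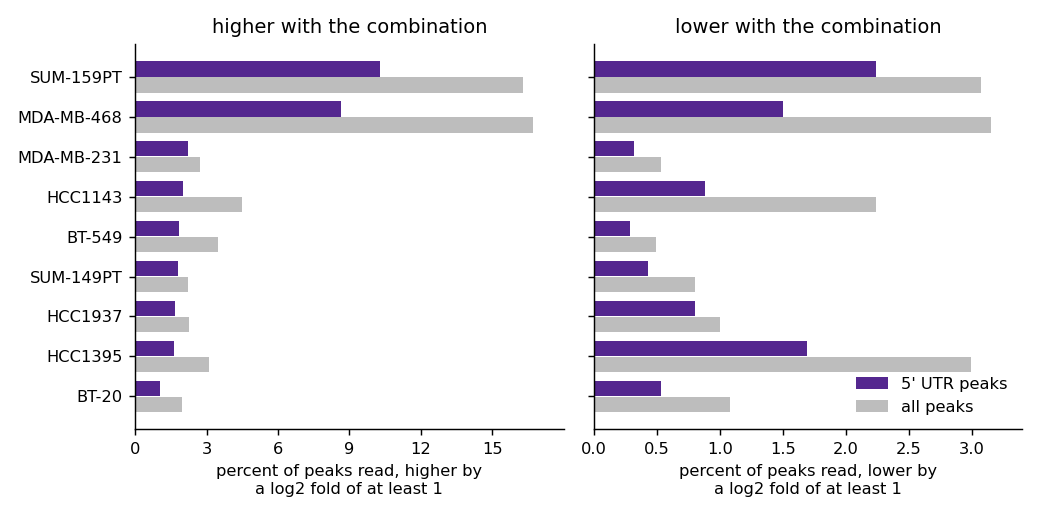
Percent of the peaks read in a line that were higher (left) or lower (right) by a log2 fold of at least 1 with the combination against DMSO, for 5' UTR peaks (purple) and all peaks (grey), 1 row for each of the 9 lines. SUM-159PT (10.3%) and MDA-MB-468 have the highest shares of higher 5' UTR peaks.

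The number of lines in which a peak reached this size was also counted. Of 6989 5' UTR peaks read in at least 1 line, 1028 were higher by a log2 fold of 1 in some line, 705 of them in 1 line only, 116 in 3 or more and 11 in 5 or more. A peak was read only in lines where it averaged at least 1 CPM, which limits how many lines it could reach. SUM-159PT and MDA-MB-468 had the most higher peaks. The same count was not made over all peaks, so these numbers say nothing particular to 5' UTR peaks. The MIR7160 peak was so in 7 lines. Peaks of PROX1, SOX5, CECR2, FMN2, ESRRG and LSAMP, a neuronal adhesion protein, were so in 6. Of 371 peaks lower by a log2 fold of 1 in some line, 327 were so in 1 line only, and the 7 that reached 3 lines lay at FOSL1, ERBB2 (the receptor HER2), RCC1, CARD10, HPCAL1, ATP13A4 and SCAP.

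The largest rise and fall of each line were mostly at different genes, with ESRRG leading the rises of 3 lines. In MDA-MB-468 a peak assigned to RERGL at a start of PIK3C2G, a class II PI3-kinase, had 4.22 CPM with the combination and 0.283 CPM with DMSO. A peak of ASXL2, a Polycomb-associated protein, had 0.558 CPM with the combination and 3.88 CPM with DMSO in that line. In SUM-159PT a peak assigned to MIR4506 at the start of PRIMA1, which anchors acetylcholinesterase, had 11.1 CPM with the combination and 0.943 CPM with DMSO. TMPRSS15 had 0.742 and 3.89 CPM there. The first ESRRG peak was the largest rise in HCC1395 (4.70 CPM with the combination and 0.844 CPM with DMSO), HCC1937 (3.28 and 0.819 CPM) and SUM-149PT (5.15 and 1.31 CPM).

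Other lines had leading genes of their own. In BT-20, GPM6A, a neuronal membrane glycoprotein, had 3.48 CPM with the combination and 0.662 CPM with DMSO, and CNN3, calponin 3, 1.37 and 3.48 CPM. In BT-549, PLEKHG1 had 4.86 CPM with the combination and 0.844 CPM with DMSO. In HCC1143 the start of the hair keratin-associated gene KRTAP3-1 had 4.36 CPM with the combination and 1.02 CPM with DMSO, and PMFBP1 had 1.57 and 5.27 CPM. In MDA-MB-231, ENTPD1, the ectonucleotidase CD39, had 3.86 CPM with the combination and 0.639 CPM with DMSO, and NAMPT, an enzyme of NAD synthesis, 1.07 and 3.20 CPM. In HCC1395 the largest fall, at FAM174B, had 0.931, 0.951 and 1.10 CPM in the combination libraries and 1.51, 1.44 and 11.7 CPM in the DMSO libraries, so it rests on DMSO replicate 3.

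The single agents were compared in MDA-MB-231, MDA-MB-468, SUM-149PT and SUM-159PT, where 8520 5' UTR peaks (89.14%) were tested. With tazemetostat 160 rose (1.88%) and 1319 fell (15.48%) at an edgeR adjusted p under 0.05, against 2.14% risen and 2.24% fallen of all 565986 peaks tested (4.37% in all). Promoter peaks had 16.54% fallen. Of the 5' UTR peaks open in 9 DMSO lines 41.22% fell, and of those open in 2 to 8 lines 3.37%. Of peaks with a start of another gene only 41.82% fell, of those with a start of the assigned gene 26.72% and of those with no start 7.211%. This split depended on the scaling and the lines. With offsets that follow abundance in each sample 98 rose and 78 fell, so that rises made up 55.7% of the calls and not 10.8%. Without SUM-159PT 13 rose and none fell, without MDA-MB-231 50 rose and 12 fell. Leaving out MDA-MB-468 gave 36 rises and 160 falls, and leaving out SUM-149PT gave 117 and 391.

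With ipatasertib no 5' UTR peak passed in either direction, and 0% rose and 0% fell over all peaks (edgeR). At an unadjusted p under 0.05 there were 107 of 8520, and DESeq2 also called 0. The smallest p-values belonged to peaks assigned to MIR4727 (0.83 ± 0.21) and LOC107983985 (1.03 ± 0.33), higher in 4 of 4 lines, and to ESRRB, an orphan nuclear receptor (-1.02 ± 0.31), and PLEKHA4 (-0.75 ± 0.25), lower in 4 of 4, all with an edgeR adjusted p of 1. With the combination in these 4 lines 167 rose (1.96%) and 225 fell (2.64%), against 1.78% and 0.895% of all peaks. These comparisons share their DMSO samples. The non-additive response, by which the combination departs from the sum of the log2 changes with either agent, passed in 0 peaks by edgeR and 0 by DESeq2, with 29 at an unadjusted p under 0.05 and 0% in either direction over all peaks. Changes simulated for the same lines and treatments with a log2 size of 1 were recovered in 32% of cases for tazemetostat in 4 lines and in 97% for the combination in 9 lines. The simulation changed 100 peaks of each size, chosen among those with many counts. It gave each the same fold in every line and all peaks a coefficient of variation of 20%.

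The named rises with tazemetostat were at MIR7160 (1.92 ± 0.20), DLG2 (1.70 ± 0.27), ESRRG (1.64 ± 0.28) and SOX5 (1.60 ± 0.23), each in 4 of 4 lines, with edgeR adjusted p of 0.000989 to 0.0125. The ESRRG call was lost without MDA-MB-468 and without SUM-159PT, with an edgeR adjusted p of up to 0.0717, and the other 3 held in the 14 alternatives. ESRRG at 216722681 had 5.57, 4.16, 5.15 and 3.44 CPM with the combination in MDA-MB-231, MDA-MB-468, SUM-149PT and SUM-159PT. With tazemetostat it had 5.09, 4.72, 4.51 and 3.29 CPM, with ipatasertib 3.31, 0.618, 1.36 and 0.575 CPM and with DMSO 2.97, 0.622, 1.31 and 0.943 CPM in the same lines. The tazemetostat values lay above the DMSO value of every line, and the ipatasertib values beside it. PROX1 in MDA-MB-468 had 22.1 CPM with the combination, 21.6 with tazemetostat, 5.09 with ipatasertib and 5.11 with DMSO.

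The named falls with tazemetostat were at SMG6, an endonuclease of nonsense-mediated decay (-1.39 ± 0.36), ZNF607, a zinc-finger gene (-1.19 ± 0.26), LASP1, an actin-binding protein (-1.07 ± 0.26), and ZDHHC18, a palmitoyltransferase (-1.04 ± 0.26). Their edgeR adjusted p was 0.0224 to 0.0424, and the calls were lost in 7, 4, 4 and 6 of 14 alternatives. Among the gene lists, 5 of 35 tested peaks of PRC2 developmental targets rose with tazemetostat and 4 fell, with a median log2 fold of 0.50. Of 13 peaks of FOXO targets 7 fell and none rose (median -0.36), and of 11 cell cycle peaks 6 fell and none rose (median -0.39), beside 15.48% of all tested 5' UTR peaks and 41.22% of those open in 9 DMSO lines. With offsets that follow abundance the named peaks of the FOXO and cell cycle lists were near 0, SOD2 at 0.00125 and CDC25B at -0.00598, with edgeR adjusted p of 0.992 and 0.954. The other fallen peaks of these lists were not read under such offsets. CARD10 in SUM-159PT had 0.488 CPM with the combination, 0.420 with tazemetostat, 1.48 with ipatasertib and 1.54 with DMSO. TMBIM6 in that line had 0.891, 1.34, 2.85 and 3.61 CPM in the same order. The most open 5' UTR peaks fell as well with tazemetostat: TPRA1 had -0.50 ± 0.09, the MBOAT7 and TSEN34 start -0.41 ± 0.09 and the SEPTIN9 start -0.36 ± 0.08. With offsets that follow abundance these 3 were at -0.02, 0.07 and 0.16.

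**Figure D5:**
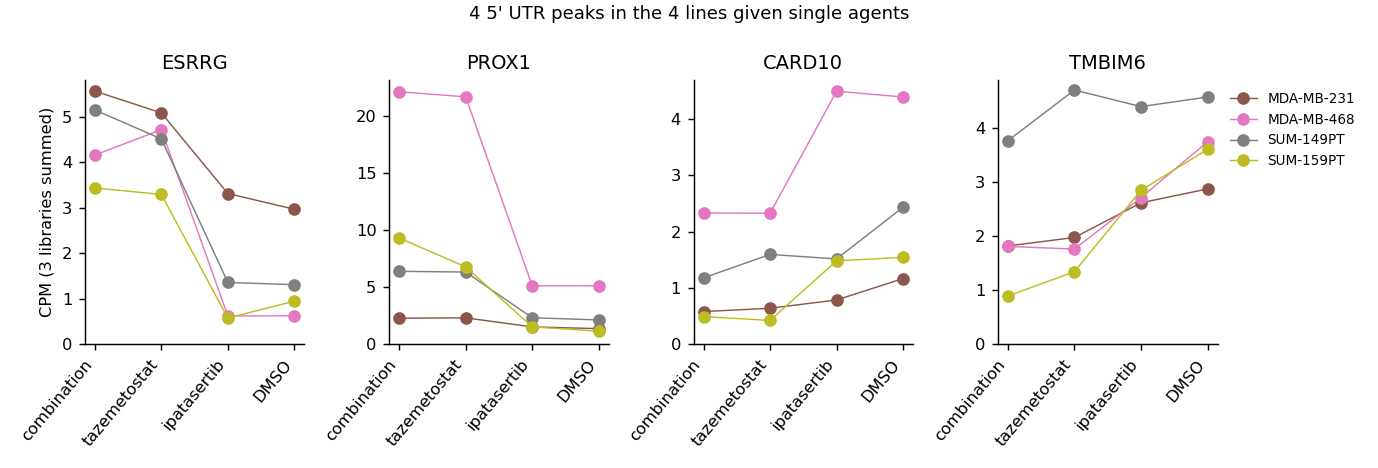
CPM (vertical axis, 3 libraries summed) of the first ESRRG peak and of the peaks of PROX1, CARD10 and TMBIM6 in the combination, tazemetostat, ipatasertib and DMSO groups, 1 coloured line for each of the 4 cell lines. ESRRG and PROX1 with ipatasertib lie near DMSO, as in MDA-MB-468 with 5.09 and 5.11 CPM for PROX1.

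Within the 4 lines tazemetostat gave 92 higher and 11 lower 5' UTR peaks by a log2 fold of 1 in MDA-MB-231 (2.7% and 0.252% of all peaks read), 453 and 24 in MDA-MB-468 (17.9% and 1.03%), 71 and 2 in SUM-149PT (1.85% and 0.15%) and 466 and 110 in SUM-159PT (16% and 2.49%). Ipatasertib gave 0 and 0 in MDA-MB-231 (0.00782% and 0.043%), 3 and 4 in MDA-MB-468 (0.188% and 0.297%), 2 and 5 in SUM-149PT (0.0726% and 0.318%) and 1 and 1 in SUM-159PT (0.0374% and 0.0467%). The largest tazemetostat rises were FRMD4A, a scaffold protein, in MDA-MB-468 (5.55 CPM with tazemetostat and 0.358 CPM with DMSO) and MYO16, an unconventional myosin, in SUM-159PT (3.92 and 0.230 CPM). SMG6 had 1.74 CPM with tazemetostat and 10.4 CPM with DMSO in SUM-159PT. The largest ipatasertib changes were under or near a log2 fold of 1, such as the ASXL2 peak in MDA-MB-468 (1.83 CPM with ipatasertib and 3.88 CPM with DMSO).

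The share of all counts that lay in 5' UTR peaks was 5.62% over the series. With tazemetostat it was lower than with DMSO in 4 of 4 lines, by 0.568 percentage points on average (difference -0.568, SD 0.276). It was 5.70% with tazemetostat and 6.11% with DMSO in MDA-MB-231, 5.28% and 6.19% in MDA-MB-468, 5.34% and 5.63% in SUM-149PT, and 4.66% and 5.33% in SUM-159PT. With the combination it was lower in 7 of 9 lines (mean difference -0.229, SD 0.261) and higher in BT-20 (5.39% with the combination and 5.32% with DMSO) and HCC1395 (5.50% and 5.38%). With ipatasertib it was higher in 3 of 4 lines (mean difference 0.072, SD 0.086). The share in Promoter peaks was lower with tazemetostat too. It averaged 27.7% against 30.08% with DMSO in MDA-MB-231, and 25.6% against 29.9% in MDA-MB-468. In SUM-149PT it averaged 26.04% against 27.55%, and in SUM-159PT 22.66% against 26.04%. With the combination it was also higher in BT-20 (26.53% against 26.24%) and HCC1395 (27.46% against 26.53%). The tazemetostat fall was therefore not particular to 5' UTR peaks.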

How the data were processed

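ATAC-seq read counts per peak were deposited by the authors for 78 libraries of 9 lines over 1 shared peak set on hg38. The submitters' processing notes name MACS2 and featureCounts, with versions not given in the sources used here. The authors' deposited table gives each peak 1 class, 1 gene and a signed distance; its tool is not given in the sources used here. The 6 HCC1806 samples in the labels were not analysed here.

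Libraries of a group were summed. Counts were tested with edgeR 4.0.16 (R 4.3.3) quasi-likelihood fits with TMM scaling, the line as block and a minimum count of 10, over all peaks passing the filter, with Benjamini-Hochberg adjustment. The step was tested on simulated data. Printed CPM are counts scaled to the total in peaks. Within lines, folds used a prior count of 2 with no test. DESeq2 1.42.0 was an alternative.

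Peaks named across lines were the largest changes among those whose log2 CPM averaged 1 or more and whose sign was shared by 8 of 9 lines, or by 4 of 4. Others were the largest rise and fall per line at 2 CPM or more, the 6 most open and 6 most variable in DMSO, and up to 3 passing peaks per gene list. Members and lists were chosen with earlier results of these data known. No genome was used here, so words were sought in RefSeq promoter windows in place of peak centres. The values of 1 gene are not reported here.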

Additional observations from a re-analysis of the deposited data

Results flagged for a closer look

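The peak at the NAALAD2 start, assigned to UBTFL1, had a log2 fold of -2.02 with the combination in SUM-159PT, far from the other 8 lines, the nearest of which was at 0.192. It held 0.0424 CPM with the combination and 0.299 CPM with DMSO there, so few counts stand behind the value. The DLG2 peak at 83680930 had -0.576 in HCC1143, with the nearest line at 0.892. Of 44 groups of lines examined these 2 stood apart, and chance alone flags about 1 group in 20.

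With the combination 15 peaks were higher in 1 line and lower in another by a log2 fold of at least 1, 12 of them with libraries that did not overlap in either line. The 3 with the widest difference are given here, and these differences were not tested. FAM174B had a log2 fold of 1.51 in SUM-159PT (11.1 CPM with the combination and 4.05 CPM with DMSO) and -2.25 in HCC1395, where the value rests on DMSO replicate 3. CLVS1, a clathrin adaptor of neurons, had 2.35 in SUM-159PT (5.68 CPM with the combination and 1.13 CPM with DMSO) and -1.18 in HCC1143 (0.667 and 1.55 CPM). SCP2, a sterol carrier protein, had 1.79 in HCC1143 (4.21 CPM with the combination and 1.17 CPM with DMSO) and -1.51 in MDA-MB-468 (0.655 and 2.07 CPM).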

How the results depend on the processing

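Across 9 lines, leaving out 1 line gave 196 to 302 rises and 160 to 320 falls. Leaving out replicate 1, 2 or 3 throughout gave 253 to 313 rises and 349 to 552 falls, and leaving out HCC1395 DMSO replicate 3 alone 332 and 420. A minimum count of 30 gave 787 falls and a replicate block 1119 rises and 2454 falls. Replicate numbers did not pair the samples: 51 same-numbered pairs had correlations of -0.056 to 0.048, and 22 of 51 correlated best with their own number. For tazemetostat in 4 lines, leaving out 1 line gave 13 to 117 rises and 0 to 391 falls, and leaving out replicates 156 to 173 rises and 868 to 1736 falls. Abundance-trended offsets gave 98 rises and 78 falls, no filter 429 falls and the replicate block 800 rises and 3098 falls. For ipatasertib the replicate block gave 27 rises. For the combination in 4 lines, leaving out 1 line gave 27 to 127 rises and 1 to 87 falls, and leaving out replicates 149 to 194 rises and 152 to 766 falls. There a minimum count of 30 gave 839 falls, no filter 79, total-count scaling 525, and the replicate block 920 rises and 2826 falls. Summed over lines, 1524 higher and 422 lower peaks within lines became 507 and 69 at a minimum of 3 CPM. With abundance-trended offsets 6 tazemetostat falls turned positive: MIR4316 0.161, LILRB3 0.0725, PLEC 0.0987, LOC105377763 0.0713, PHF19 0.0194 and SOD2 0.00125. The cause was not tested. Of 43 named calls across 9 lines 25 held in every alternative run and none reversed. The other 18 were lost in at least 1 alternative, with adjusted p of up to 0.108. Changes of 0.5 on the log2 scale simulated in 9 lines were recovered in 13% of cases, so small changes can be missed. That share holds for the settings of the simulation, in which the changed peaks had many counts. The splits by distance and by promoter word, and the within-line values without HCC1395 DMSO replicate 3, were chosen after seeing the data. Of 32 named calls across 4 lines 3 held in every alternative run and 29 were lost in at least 1. The replicate block treats libraries as replicates and raised the counts over all peaks too, to 47869 rises and 52041 falls in the 9 lines, against 14488 and 11165.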
